A study of Mus musculus with 40 samples.

Results

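The cluster of miR-532, miR-501 and miR-362 is a row of microRNA hairpins inside an intron of Clcn5, a gene on the mouse X chromosome that encodes an endosomal chloride/proton exchanger. A total of 8 mature microRNAs of this cluster were followed in blood, out of 1915 mature microRNAs in the count table, of which 1016 had any read. The members are mmu-miR-532-5p, mmu-miR-532-3p, mmu-miR-501-3p, mmu-miR-501-5p, mmu-miR-500-3p, mmu-miR-362-5p, mmu-miR-362-3p and mmu-miR-188-5p, and the prefix for the mouse is left out from here on. They were picked by name, and they were chosen by an earlier look at these same counts, in which miR-532-5p and miR-501-3p were lower at 16.5 than at 12 months. The values of that comparison are therefore given as a description and carry no p-value. The same holds for the test over all ages and for every comparison that uses the 12-month or the 16.5-month libraries. The comparison of 15 with 13.5 months shares no library with that comparison and is the one tested here. Its spread was estimated from the libraries of all ages, and earlier results of these data were known when the members were chosen. Its p-values are therefore not those of an independent test.

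The blood came from male C57B/6J mice that were housed singly and bled from the orbital sinus. Small RNA was sequenced first at 12 months, then at 13.5 months, at 15 months and last at 16.5 months, with 10 libraries per age and 40 libraries in all. No transgene, deletion or drug is given for any group, and age is the sole difference between them in the labels. The study followed the same animals, and it kept a group trained in the water maze and a home-cage group. Its methods place the first bleed ahead of all behavioural work and the later bleeds after the memory test of each age. In trained mice, age and training therefore cannot be told apart against 12 months. Between the later ages the rounds of training and of earlier bleeds rise with age too. These also cannot be told apart from age. The labels say neither whether a library came from a trained mouse nor which libraries share an animal, so the libraries were treated as independent. The column names hold a number that the 4 ages share, and whether it names the animal is not given. A fit with a block on this number is given below. P-values measure only the spread between these libraries.

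A microRNA is cut from a hairpin that can yield one product from its 5′ arm (5p) and one from its 3′ arm (3p), and as a rule one of them is retained in a silencing complex while the other is degraded. The seed, bases 2 to 8 of the mature strand, pairs with target messenger RNAs, so that microRNAs with the same seed can share targets. Hairpins in a row on the same strand of one intron can be transcribed as one precursor and then diverge in cutting and stability. In blood most microRNA reads come from red cells, where miR-486-5p and miR-451a dominate.

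All 5 hairpins lie on the minus strand of GRCm38, the strand of Clcn5 (chrX:7153810-7319358), and in one intron (chrX:7213011-7316658) of the 3 annotated Clcn5 transcripts that span them. None overlaps an annotated Clcn5 exon. Together these 5 span 10815 bases, and the hairpins of miR-660 and miR-502b were not placed here. In the direction of transcription the order is Mir532 (chrX:7248402-7248497), Mir188 (chrX:7247989-7248056), Mir362 (chrX:7241982-7242046), Mir501 (chrX:7241243-7241351) and Mir500 (chrX:7237683-7237774). Mir532 and Mir188 are separated by 345 bases, and Mir362 and Mir501 by 630 bases, while 5942 bases lie between Mir188 and Mir362.

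RefSeq (GRCm38.p6) gave a mature sequence for 7 of the 8 members. In the reference used here miR-532-5p had none, so its sequence and seed were not compared with those of other strands. The sequences are shown because they decide which members can be told apart by their reads. Each is written 5′ to 3′ with the seed in capitals:
miR-501-3p: aAUGCACCcgggcaaggauuug
miR-500-3p: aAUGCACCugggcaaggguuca
miR-532-3p: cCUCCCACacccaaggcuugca
miR-501-5p: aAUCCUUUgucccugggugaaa
miR-362-5p: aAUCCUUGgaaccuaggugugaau
miR-362-3p: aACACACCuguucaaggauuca
miR-188-5p: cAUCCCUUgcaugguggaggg

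The seed AUGCACC is shared by miR-501-3p and miR-500-3p and by no other of the 1623 count-table microRNAs with a RefSeq sequence. The 2 strands, both 22 bases long, differ by the 4 substitutions C9U, A18G, U21C and G22A, counted from the 5′ end of miR-501-3p. Any stretch of 18 bases of one differs from any stretch of the other by at least 2 bases. Since reads were matched without mismatches and had at least 18 bases, a read that lies within one of these strands cannot fit the other. The seed AUCCUUG of miR-362-5p is also that of miR-500-5p, the other arm of Mir500, which had 3 reads in all libraries. The seed of miR-362-3p is carried also by miR-329-3p, which had 1 read, and that of miR-188-5p by miR-7061-3p, which had 0.

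Total counts ranged from 2469196 to 21386209 per library. Nearly all of them were miR-486-5p, which the table lists under 2 names, and 95380 to 1744037 counts remained outside it. The medians of those remaining counts were 858093.5 at 12 months, 702953 at 13.5 months, 267904 at 15 months and 599500 at 16.5 months, so the 15-month libraries carried the least information on the cluster. One 16.5-month library (the 7th in column order) was the shallowest and correlated least with the rest. No 2 libraries of an age differed by as little as sampling noise.

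Reads of the 8 members came almost entirely from 3 strands. Of 30676 reads of the 8 members, 63.3% were miR-501-3p (19420 reads), 29.5% were miR-532-5p (9053 reads) and 6.39% were miR-532-3p (1961 reads). These 3 had reads in all 40 libraries. The next was miR-500-3p with 130 reads in 33 libraries. The remaining members were near the detection limit, with 49 reads of miR-362-5p in 22 libraries, 25 of miR-362-3p in 16, 24 of miR-501-5p in 16 and 14 of miR-188-5p in 12. Members with more than 100 reads in at least 20 libraries, the filter for testing, were 2 of 8 (miR-532-5p and miR-501-3p), and 4 of 8 passed a lower limit of more than 1 read in 20 libraries. The 3 abundant strands thus came from Mir532 and Mir501, and the hairpins Mir188 and Mir362 that lie between these gave few reads.

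**Figure D1:**
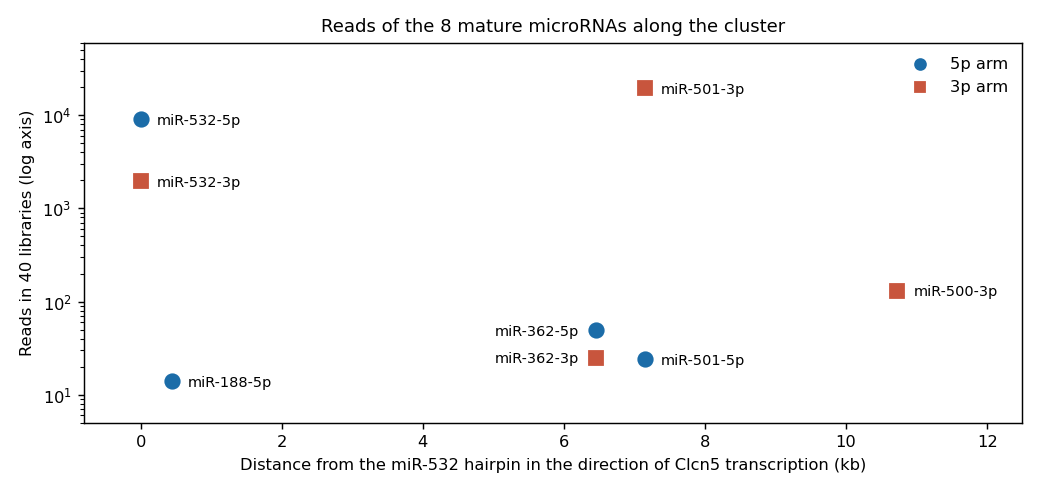
Reads of each member summed over 40 libraries (log axis) against the distance of its hairpin from Mir532 in the direction of Clcn5 transcription; circles are 5p and squares 3p arms. The 3 strands with the most reads (19420, 9053 and 1961) come from Mir501 and Mir532, while Mir188 between them gave 14.

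The 3p strand of Mir501, miR-501-3p, was lower from 15 months on. Levels are log2 counts-per-million (CPM) values with TMM scaling. At 12 months miR-501-3p had levels of 5.02 to 5.95 (median 5.54), at 13.5 months 4.87 to 6.26 (median 5.97), at 15 months 4.18 to 5.22 (median 4.78) and at 16.5 months 3.46 to 5.09 (median 4.91). At 15 months 8 of 10 libraries were below every 13.5-month library. The 2 ages overlapped only through 2 libraries of 13.5 months with levels of 4.87 and 4.98, and the third lowest of that age was at 5.69.

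The mean level of miR-501-3p was 5.51 ± 0.33 at 12 months, 5.81 ± 0.50 at 13.5 months, 4.74 ± 0.28 at 15 months and 4.70 ± 0.49 at 16.5 months (SD, n = 10 each). Between 13.5 and 15 months it fell 2.17-fold, with a log2 fold change of -1.12 ± 0.17 (SE) and an adjusted p of 1.2e-06 (edgeR quasi-likelihood test, Benjamini-Hochberg over 105 microRNAs). All 10 libraries of 15 months were below the 13.5-month mean. Of all 105 microRNAs tested 47.6% passed the threshold of 0.05 in this comparison, so that a change at this step was common, and miR-501-3p had the second strongest fall of the 105. In blood, fewer cells of a type and less RNA per cell cannot be told apart in such values.

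At the steps before and after, the differences of miR-501-3p were smaller. From 12 to 13.5 months its log2 fold change was 0.33 ± 0.17, and from 15 to 16.5 months 0.03 ± 0.17, so that the levels at 15 and 16.5 months did not differ beyond their spread. Against 12 months it was 1.74-fold lower at 15 months (log2 fold change -0.80 ± 0.17) and 1.71-fold lower at 16.5 months (-0.77 ± 0.17). Against 13.5 months it was 2.14-fold lower at 16.5 months (-1.10 ± 0.17). The libraries of 12 and of 13.5 months entered several of these values, which are not independent of each other.

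**Figure D2:**
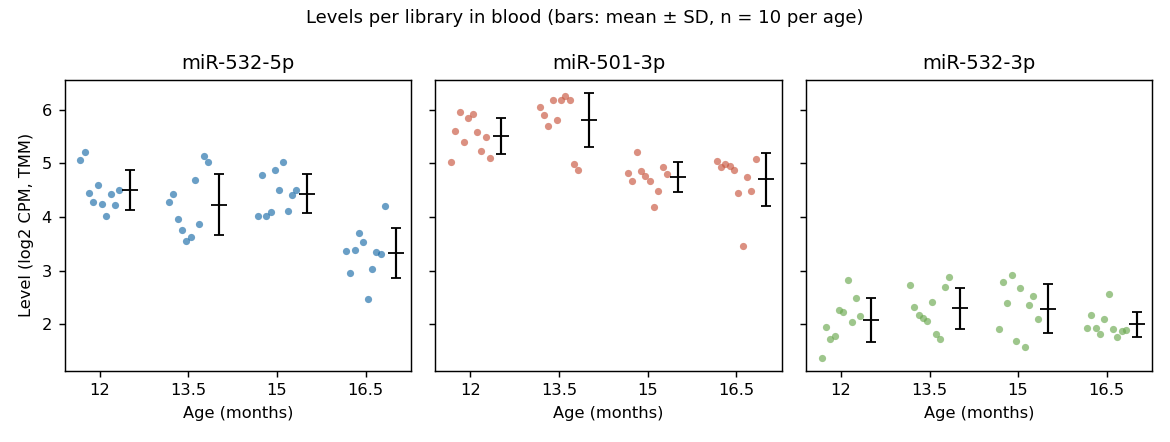
Levels (log2 CPM, TMM) of miR-532-5p, miR-501-3p and miR-532-3p in each library by age in months; points are libraries spread sideways for legibility, and bars are mean ± SD of 10 libraries. The step of miR-501-3p lies between 13.5 and 15 months (means 5.81 and 4.74), that of miR-532-5p between 15 and 16.5 months (4.43 and 3.33), and miR-532-3p stays at means of at most 2.30.

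The 5p strand of Mir532, miR-532-5p, had similar levels up to 15 months and was low at 16.5 months. Its levels ranged from 4.02 to 5.20 (median 4.44) at 12 months, from 3.56 to 5.13 (median 4.11) at 13.5 months and from 4.01 to 5.02 (median 4.45) at 15 months. At 16.5 months they ranged from 2.47 to 4.21 (median 3.35). There 9 of 10 libraries were below every library of 15 months, and also 9 of 10 below every library of 12 months. The 1 library that overlapped had a level of 4.21.

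The means of miR-532-5p were 4.50 ± 0.37, 4.23 ± 0.57, 4.43 ± 0.37 and 3.33 ± 0.46 at the 4 ages in turn (SD, n = 10 each), and those of 12, 13.5 and 15 months did not differ beyond their spread. Between 13.5 and 15 months its log2 fold change was 0.14 ± 0.20 with an adjusted p of 0.563 (edgeR), and the 95% interval ran from -0.25 to 0.54. A change of the size seen for miR-501-3p at this step lies outside that interval. From 15 to 16.5 months it was 2.10-fold lower (log2 fold change -1.07 ± 0.21), and the median over all 105 microRNAs was 0.05. This was the strongest fall of the 105, but miR-532-5p was chosen for its low level in these same 16.5-month libraries. Nothing is read from that rank.

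The other comparisons of miR-532-5p gave log2 fold changes of -1.12 ± 0.20 (2.17-fold lower) at 16.5 against 12 months and -0.92 ± 0.20 (1.89-fold lower) at 16.5 against 13.5 months. At 13.5 and at 15 months it differed from 12 months by -0.20 ± 0.20 and -0.06 ± 0.20. Counted against the whole table, both abundant members passed the threshold over age, where 61% of the 105 did. Both did at 16.5 against 12 months (23.8% of all) and at 16.5 against 13.5 months (40% of all). Only miR-501-3p did at 15 against 12 months (23.8% of all), only miR-532-5p at 16.5 against 15 months (28.6% of all), and neither at 13.5 against 12 months (29.5% of all). Since these comparisons share libraries with the choice of the members, nothing is read from these counts.

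**Figure D3:**
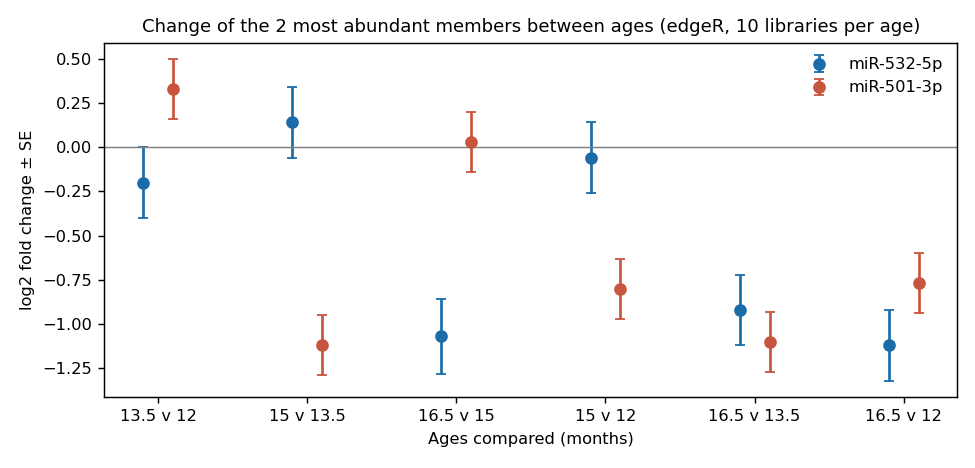
log2 fold changes ± SE (edgeR) of miR-532-5p and miR-501-3p for the 6 pairs of ages in months, the older against the younger, 10 libraries per age. At 15 against 13.5 months the 2 strands are apart (0.14 and -1.12), and at 16.5 against 15 months they are apart the other way (-1.07 and 0.03).

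The same values can be set against each other within libraries. The log2 ratio of miR-532-5p to miR-501-3p counts needs no scaling between libraries. It was -1.02 ± 0.56 at 12 months, -1.58 ± 0.99 at 13.5 months, -0.31 ± 0.58 at 15 months and -1.38 ± 0.48 at 16.5 months (SD, n = 10 each). It ranged from -2.56 to 0.16 at 13.5 months and from -1.20 to 0.85 at 15 months. The difference of 1.28 ± 0.36 (SE) between these 2 ages restates the 2 fold changes above without scaling and is given as a description. In counts summed over libraries, 0.401 reads of miR-532-5p were found per read of miR-501-3p at 13.5 months, 0.875 at 15 months and 0.405 at 16.5 months.

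The 13.5-month ratios fell into 8 libraries between -2.56 and -1.48 and 2 libraries near 0.16. These 2 are the libraries lowest in miR-501-3p at that age, and their levels of miR-532-5p, 5.03 and 5.13, were the highest of that age. Without them the log2 fold change at 15 against 13.5 months was -1.29 for miR-501-3p and 0.42 for miR-532-5p, the difference in the ratio was 1.71 ± 0.23, and miR-501-3p differed from 12 months by 0.495 at 13.5 months, against 0.33 with all libraries. Since these libraries were picked for their low miR-501-3p, the direction of these shifts follows from leaving them out.

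**Figure D4:**
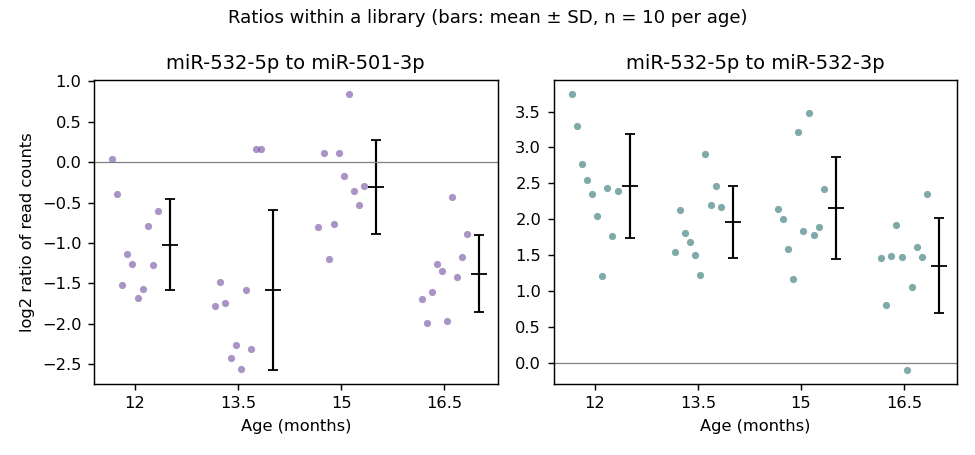
log2 ratios of read counts within each library by age in months, for miR-532-5p to miR-501-3p (left) and to miR-532-3p (right); points are libraries spread sideways for legibility and bars are mean ± SD of 10 libraries. The left ratio is highest at 15 months (mean -0.31), and 2 libraries of 13.5 months lie apart near 0.16.

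The 15-month columns carry either the letter B (3 libraries) or C (7 libraries), whose meaning is not given in the sources used here. The mean level of miR-501-3p was 4.91 in the former and 4.67 in the latter, and that of miR-532-5p 4.27 and 4.50. With the C libraries alone the log2 fold change at 15 against 13.5 months was -1.08 for miR-501-3p and 0.30 for miR-532-5p, and with the B libraries alone -0.93 and 0.01. The fall of miR-501-3p passed the threshold in both. All columns of 13.5 months carry the letter A, so at this comparison the letter and the age cannot be told apart. Columns of 12 and of 16.5 months carry a different letter per library, from A to J. The lettering therefore also changes with age at the steps from 12 to 13.5 and from 15 to 16.5 months.

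The 3p strand miR-532-3p, which comes from the same hairpin as miR-532-5p, had smaller differences between ages. Its levels were 1.38 to 2.83 (median 2.10) at 12 months, 1.73 to 2.89 (median 2.25) at 13.5 months, 1.58 to 2.92 (median 2.38) at 15 months and 1.77 to 2.57 (median 1.92) at 16.5 months. All 4 ranges overlapped. It rests on a median of 20.5 counts per library at 15 months and 36.5 at 16.5 months, against 73.5 and 57.0 at the earlier ages.

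With the lower limit on counts, which left 345 microRNAs, the log2 fold change of miR-532-3p at 15 against 13.5 months was -0.03 ± 0.17 with an adjusted p of 0.919 (edgeR) and a 95% interval from -0.38 to 0.31. At 16.5 against 12 months it was -0.14 ± 0.17 (95% interval -0.48 to 0.19), where miR-532-5p was at -1.15 ± 0.20 in the same fit. At the step from 15 to 16.5 months miR-532-3p was at -0.33 ± 0.18 (95% interval -0.68 to 0.02), with 9 of 10 libraries below the 15-month mean, and miR-532-5p at -1.06 ± 0.21. At 16.5 against 13.5 months the values were -0.37 ± 0.17 (-0.70 to -0.03) and -0.93 ± 0.20, so both strands had the same sign at these steps. The share of these 345 that passed the threshold was 27% at 15 against 13.5 months, with 1 of the 4 members (miR-501-3p), and 13.9% at 16.5 against 12 months, with 2 of the 4 (miR-532-5p and miR-501-3p).

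The arm balance of Mir532 had its lowest mean at 16.5 months. The log2 ratio of miR-532-5p to miR-532-3p counts was 2.46 ± 0.72 at 12 months, 1.96 ± 0.50 at 13.5 months, 2.16 ± 0.71 at 15 months and 1.36 ± 0.66 at 16.5 months (SD, n = 10 each). Summed over libraries there were 5.52, 4.36, 4.95 and 3.24 reads of 5p per read of 3p. The 5p strand had more reads than the 3p strand in all libraries but 1, a library of 16.5 months. At 15 against 13.5 months the ratio differed by 0.19 ± 0.28 (SE). This ratio and the levels also moved with depth. Over the 40 libraries Spearman's rho with the counts outside miR-486-5p was 0.45 for the ratio, 0.24 for the level of miR-532-5p, 0.45 for miR-501-3p and -0.24 for miR-532-3p. Within ages these values were 0.63, 0.48, -0.05 and -0.27. The part of depth in the steps of the levels and of the ratio was not tested.

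Mir501 showed the opposite arm preference, and a much stronger one. Per read of miR-501-5p, 866, 927, 401 and 750 reads of miR-501-3p were summed at the 4 ages in turn. The 5p strand had only 9, 8, 3 and 4 reads at these ages, and no order between the ages can be read from so few.

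The seed partner miR-500-3p was rare at every age. Its reads summed to 50 at 12 months (exact 95% Poisson interval 37.1 to 65.9), 47 at 13.5 months (34.5 to 62.5), 14 at 15 months (7.65 to 23.5) and 19 at 16.5 months (11.4 to 29.7). As RPM, a reads-per-million value over all reads outside miR-486-5p, this came to 5.14, 5.92, 5.30 and 3.07. The intervals and limits given for summed reads cover counting error only. Its log2 fold change at 15 against 13.5 months was -0.26 ± 0.48 with an adjusted p of 0.729 (edgeR), and the 95% interval from -1.21 to 0.68 holds both no change and a fall of the size of miR-501-3p. At 16.5 against 12 months it was -0.73 ± 0.43 (95% interval -1.58 to 0.12). At 16.5 against 13.5 months it was -0.98 ± 0.44 (95% interval -1.83 to -0.12). Per read of miR-500-3p there were 156, 158, 86.0 and 158 reads of miR-501-3p.

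Mir362, Mir188 and the other arms gave too few reads for a comparison. Summed over the libraries of each age in turn, miR-362-5p had 16, 18, 7 and 8 reads and miR-362-3p 13, 4, 3 and 5 reads. The first hairpin after Mir532, Mir188, gave 7, 3 and 4 reads of miR-188-5p at the first 3 ages and 0 at 16.5 months, which allows up to 0.485 RPM by a limit of 3 counts and up to 0.596 RPM by the exact 95% interval. Its summed level at 12 months was 0.720 RPM with an exact 95% interval from 0.290 to 1.48. These exact intervals overlap and no test was made, so whether the level was lower at 16.5 months is not settled here. The arms that were not among the 8 members had no more, with 4, 3, 0 and 0 reads of miR-188-3p and 1, 0, 1 and 1 reads of miR-500-5p. Other arms of this intron, those of miR-660 and miR-502b, were not analysed here.

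On the simpler scale of RPM, summed over the libraries of an age, miR-532-5p stood at 392, 374, 399 and 196 and miR-501-3p at 802, 933, 456 and 485. These sums weight deep libraries more but show the same steps as the levels above.

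Strands of the cluster varied together only weakly from library to library. Between miR-532-5p and miR-501-3p Spearman's rho over the 40 libraries was 0.10, and -0.15 after the age means had been taken out. Between miR-532-5p and miR-532-3p, which come from one hairpin, it was 0.05 and -0.16. The highest value was that of the seed partners miR-501-3p and miR-500-3p, with 0.40 and 0.34 within ages, and it includes the counting error of the rare strand. All points share the depth and scaling of their library. These values are descriptions of this set and carry no test.

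**Figure D5:**
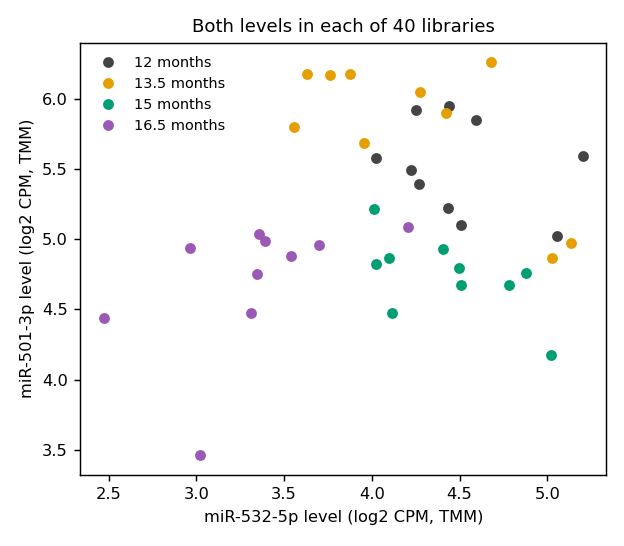
Levels (log2 CPM, TMM) of miR-532-5p and miR-501-3p in each of 40 libraries, coloured by age. Libraries of 16.5 months lie low on both axes, those of 15 months low only in miR-501-3p, and Spearman's rho over all is 0.10.

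Other microRNAs resembled the 2 abundant strands more than these resembled each other. Among the 104 others that passed the main filter, miR-501-3p ranked 42nd for likeness to miR-532-5p by Spearman's rho. The most alike were miR-148b-3p (0.82), miR-30a-3p (0.78), miR-148a-3p (0.71), miR-140-3p (0.60) and miR-29a-3p (0.60), with rho within ages of 0.73, 0.64, 0.72, 0.57 and 0.72. Their log2 fold changes at 16.5 against 15 months were -0.95, -0.44, -0.62, -0.73 and -0.24, all in the direction of miR-532-5p. At 15 against 13.5 months they were 0.56, 0.14, 0.64, 0.87 and -0.28, against 0.14 for miR-532-5p.

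For miR-501-3p the most alike were miR-93-5p (0.73), miR-103-3p (0.72), miR-15b-5p (0.71), let-7g-5p (0.68) and miR-17-3p (0.60). Within ages these values dropped to 0.41, 0.31, 0.48, 0.34 and 0.07, so that much of the likeness lay in the age means. Their log2 fold changes at 15 against 13.5 months were -0.96, -0.72, -1.03, -0.70 and -0.68, and at 16.5 against 15 months -0.03, -0.06, 0.01, 0.11 and 0.13. They thus had the step of miR-501-3p at the same ages. Likeness was measured on the same libraries as these changes.

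Some rows of the cell type markers of blood passed the threshold at the steps named above. Of all 105 microRNAs 47.6% passed at 15 against 13.5 months and 28.6% at 16.5 against 15 months. Calls among so few marker rows are therefore only listed. Rows of red-cell microRNAs, the arms of miR-486a, miR-486b, miR-451a and miR-144, had reads in every library, and 6 of 7 were tested. The rows of miR-486a and miR-486b are equal, so these 6 hold 4 distinct measurements. At 15 against 13.5 months 3 rows were higher (both miR-486-5p rows at a log2 fold change of 1.02 and miR-144-5p at 1.24) and 0 lower. Their summed level ranged from 18.99 to 19.93 at 13.5 months, from 19.93 to 21.95 at 15 months and from 19.06 to 20.97 at 16.5 months. This sum over all 7 rows is mostly miR-486-5p, which it holds under both names. It also moves with the TMM factor, which was 0.2422 in 1 library of 15 months. At 16.5 against 15 months 2 of the 6 were lower, both of them miR-486-5p rows (-0.63). Of the 5 myeloid rows 3 were tested and 1 was higher at 15 against 13.5 months, and their summed level ranged from 10.54 to 11.62 at 13.5 months and from 10.97 to 12.13 at 15 months. Of 3 lymphoid rows 2 were tested and 1 was higher at 16.5 against 15 months, with summed levels of 7.13 to 8.74 at 15 months and 7.10 to 9.77 at 16.5 months. At 16.5 against 12 months both tested lymphoid rows, miR-150-5p (0.86) and miR-342-3p (1.10), were higher, and their list had summed levels of 6.66 to 8.55 at 12 months. No tested red-cell or myeloid row passed there, where 23.8% of the 105 did. No row of the platelet, endothelial or liver lists passed the filter. Within ages miR-532-5p had a rho of -0.56 with miR-486a-5p and 0.64 with miR-451a, both red-cell microRNAs, 0.70 with miR-21a-5p and 0.55 with miR-223-3p of the myeloid list, and -0.66 with miR-150-5p of the lymphoid list. The values of miR-501-3p with these 5 were -0.09, 0.20, 0.07, 0.00 and -0.02. Of the other red-cell rows, miR-532-5p had -0.64 with miR-486a-3p, -0.09 with miR-144-3p and 0.22 with miR-144-5p. Of the other myeloid rows it had -0.23 with miR-223-5p, 0.16 with miR-142a-3p and 0.35 with miR-142a-5p. Of the other lymphoid rows it had -0.33 with miR-342-3p and 0.08 with miR-155-5p. Each list thus held values of both signs, though miR-223-5p and miR-155-5p had median counts of only 4 and 9. The part of these cells in the steps of the cluster was not tested.

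The choice of scaling bears on every level. With library totals alone, which miR-486-5p fills, the median log2 fold change of all 105 was -0.81 at 15 against 13.5 months and 0.65 at 16.5 against 15 months. Relative to these medians miR-501-3p was at -1.13 and 0.06, and miR-532-5p at 0.24 and -1.12, close to the values with TMM scaling. Subtracting the median is itself a scaling on the same 105 microRNAs, so this closeness is no separate check. Without that subtraction, miR-532-5p was at -0.57 at 15 against 13.5 months and its fall from 15 to 16.5 months, -0.47, no longer passed the threshold.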

How the data were processed

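Blood small RNA libraries (10 per age, 40 in all) were grouped by the age in the labels. The authors prepared TruSeq small RNA libraries, trimmed adapters with cutadapt, mapped reads of at least 18 bases to mm10 with miRDeep2 and counted those that matched mature strands of miRBase. The deposited values are raw counts, added up where a mature strand has several loci. Quality was checked with FastQC 0.11.5 per the submitters' processing notes. The second deposited table of normalized values was not used here, and 0 columns remained without an age.

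The members and lists were chosen with earlier results of these data known. The test was edgeR 4.0.16 (R 4.3.3) with TMM factors, 1 coefficient per age, glmQLFit and glmQLFTest, Benjamini-Hochberg adjustment and a threshold of 0.05, for microRNAs with more than 100 reads in 50% of libraries (105), or more than 1 read (345) for rare members. The SE was obtained by dividing the size of a log2 fold change by the root of its F statistic, and 95% intervals come from it. Levels are log2 CPM with a prior count of 2, relative to a total that counts miR-486-5p 2 times. Arm ratios used a pseudocount of 0.5. Intervals of summed reads are exact Poisson intervals, and the limit for 0 reads is 3 counts. The edgeR script was tested on simulated counts. Named were the 8 members and the other arms miR-188-3p and miR-500-5p, but not the arms of miR-660 and miR-502b. Also named were count-table microRNAs that share a seed with 1 of the 7 members with a sequence. The 5 most alike by Spearman's rho to each abundant strand were named too. Sequences and hairpin positions are from RefSeq (GRCm38.p6) and introns from GENCODE M21, both on the mm10 assembly.

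Alternatives were median-ratio factors, library totals, omission of miR-486, lower filters, DESeq2 1.42.0, limma 3.58.1 voom, the 2 ages alone in the fit, 1 factor of unwanted variation and leaving out each library. The columns name an age and a number that the 4 ages share, not the replicate numbers of the labels. Deviations from the age means were correlated over the 105 microRNAs in 60 same-number pairs. The r ranged from -0.867 to 0.860 (median -0.0278), and 24 pairs were over 0.1. The number was therefore not used to pair libraries in the main fit, though these values cannot exclude that it names the animal.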

Additional observations from a re-analysis of the deposited data

Results flagged for a closer look

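Levels of the 3 abundant strands and 2 log2 ratios were screened for a library far from the others of its age, in 20 groups of 10 libraries, and 2 groups held one. Chance alone flags about 1 in 20 groups. At 16.5 months miR-501-3p had a level of 3.46 in 1 library, with the nearest at 4.44 and the median at 4.91. This was the shallowest library, with 95380 counts outside miR-486-5p and 15 reads of miR-501-3p. Without it the log2 fold change of miR-501-3p was -0.69 at 16.5 against 12 months and 0.10 at 16.5 against 15 months. At 16.5 months miR-532-3p had a level of 2.57 in another library, with the nearest at 2.17 and the median at 1.92.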

How the results depend on the processing

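The fall of miR-501-3p at 15 against 13.5 months kept its direction and passed the threshold under all 13 alternatives (log2 fold change -1.94 to -0.93) and without any 1 library (-1.20 to -0.98). At 16.5 against 12 months, by which the members were chosen, the values under 10 alternatives were -1.29 to -1.04 for miR-532-5p and -0.90 to -0.74 for miR-501-3p. Where "passing" is given below for a comparison with 12 or 16.5 months, it records the threshold in that fit and nothing is read from it. For the replicate block on the number in the column names, miR-532-5p was at -1.14 and miR-501-3p at -0.77 at 16.5 against 12 months and at 0.19 and -1.12 at 15 against 13.5 months, and it changed no call of these strands. A paired fit by the replicate numbers of the labels was not possible because the columns carry none.

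Library totals alone gave -0.82 (passing) for miR-532-5p at 15 against 12 months, -0.57 at 15 against 13.5 months, -0.47 (not passing) at 16.5 against 15 months, and 0.71 (passing) for miR-501-3p at 16.5 against 15 months, where the median of all microRNAs moved too. Values near 0 changed sign without passing. For miR-532-5p at 15 against 12 months these were 0.008 with median-ratio factors, 0.050 without miR-486, 0.009 with DESeq2, 0.060 with the 2 ages alone, 0.003 with 1 factor of unwanted variation and 0.039 with the C libraries. For miR-501-3p at 16.5 against 15 months they were -0.044, -0.057, -0.030 and -0.060 under the first 4 of these and -0.150 with the B libraries. Leaving out 1 library moved these 2 results from -0.137 to 0.066 and from -0.049 to 0.104. Median-ratio factors put miR-532-3p at 0.012 at 15 against 13.5 months, and library totals at -0.80 (passing). With the B libraries alone miR-501-3p at 15 against 12 months was -0.62 and no longer passed. Without the 2 libraries of 13.5 months lowest in miR-501-3p its difference from 12 months, 0.495, passed, a shift that the choice of these libraries fixes. The cause of these shifts was not tested. The fits by letter, without those 2 libraries and with the block were chosen after seeing the data. Depth limits miR-500-3p and the rarer members. At 15 against 13.5 months the interval of miR-500-3p holds both no change and a large one. For the members rarer than miR-500-3p no fold change was fitted. Over all 105 microRNAs, library totals alone called 5 at 16.5 against 12 months (25 as reported), 12 at 13.5 against 12 (31), 84 at 15 against 12 (25), 66 at 16.5 against 15 (30), 28 at 16.5 against 13.5 (42) and 73 at 15 against 13.5 (50). With more than 1 read as the limit 135 of 345 passed over age (64 as reported), and 48, 54, 39, 74 and 93 at 16.5 against 12, 13.5 against 12, 15 against 12, 16.5 against 13.5 and 15 against 13.5 months, and with no filter 113 passed over age.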
